A study of Mus musculus with 13 samples.

Results

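Insulin signalling, the FOXO transcription factors and the regulators that act between meals are represented here by 8 genes: Irs2, Insr, Foxo1, Foxo3, Ppargc1a, Txnip, Klf15 and Sirt1. They were taken by symbol from the 21868 genes of a count table from mouse jejunum. The members were chosen with earlier results of these data known, so their shared direction is not independent evidence. All 8 had a row, passed the filter on low counts and were tested among 14300 genes. Klf15, Irs2 and Insr were higher in the lunch-skipping group than in both other feeding patterns, and Foxo3, Ppargc1a and Txnip were higher than in breakfast skipping.

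Jejunal cells were sorted as EpCAM+ and CD45-, CD11b-, CD3- and B220-, and their polyadenylated RNA was sequenced. Breakfast skipping (BSF, 2 libraries) meant food from ZT16 to ZT24, lunch skipping (LSF, 3 libraries) food from ZT12 to ZT16 and again from ZT20 to ZT24, and dinner skipping (DSF, 2 libraries) food from ZT12 to ZT20, each for 2 weeks, where ZT is the hour on the clock of the light cycle. A control group (con) and a group labelled as the BSF pattern combined with control (BSF_C) had 3 libraries each. The mice shared 1 environment and cage, per the series' design text, while the sources used here do not give strain, age, hour of sampling, or the food access of con and BSF_C. The time between the last meal and sampling is therefore unknown for every group. The labels call the libraries biological replicates without naming animals, so the p-values below cover no more than the spread between the libraries sequenced here.

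Levels are in CPM, the counts of a gene relative to its library's total after trimmed-mean (TMM) scaling. Differences are log2 values from edgeR (quasi-likelihood F test, two-sided), with p-values adjusted after Benjamini and Hochberg over all 14300 genes. A gene is said to have differed, risen or fallen when its adjusted p was under 0.05. Each interval is a 95% interval of the log2 difference. Library totals were 4851239 to 5202146 counts in con and 7127769 to 8589351 in the others. All 14 intestinal epithelial markers were detected in every group, with summed means from 9132 CPM in con to 15440 CPM in LSF. These markers did not share a direction. Cdh1, Cdx2 and Krt18 were highest in con, Cdh1 at 2020 CPM against 718 to 851 CPM in the other groups. The rest of the list was lowest in con. Transcripts of other tissues were present as well. The sum of 14 heart muscle genes ranged over 441 to 514 CPM in the LSF libraries, 481 to 487 in DSF, 179 to 188 in BSF, 166 to 198 in BSF_C and 8.11 to 12.2 in con, where 7 of the 14, Myh6 and Actc1 among them, had no count. Myh6 and Pln made up most of the heart muscle sum in LSF, with means of 180 and 186 CPM. Most listed heart muscle genes had higher means in LSF and DSF than in BSF, but Nppb, Myl2 and Myl7 did not in both. Tnnt2 was near equal in con and BSF, at 6.56 and 6.72 CPM. The mean sum of 12 leukocyte genes was 19.8 CPM for con and 196, 215, 315 and 316 CPM for the groups BSF, BSF_C, LSF and DSF. Itgam and Cd79a of that list were instead highest in con, Itgam at 12.1 CPM against 5.81 to 7.92 CPM in those groups. A fibroblast list gave 10.7 CPM for con and 89.7, 122, 217 and 177 CPM for those groups. Skin keratinocyte transcripts (14 genes) went the other way, with 639 to 744 CPM across the con libraries and at most 10.1 CPM in any other library. The con libraries stood apart as a group. A chi-square of counts over its degrees of freedom was 52.5 to 76.4 between a con library and any other, 1.62 to 12.6 between libraries of other groups, and 1.38 to 3.72 within a group. A batch shared by the con libraries and their feeding cannot be told apart, so the comparisons without con come first below. Every member is read from bulk RNA, in which fewer cells of a type and less RNA per cell cannot be told apart.

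The insulin receptor, encoded by Insr, passes its signal through adaptor proteins such as IRS2 to the kinase AKT. AKT phosphorylates FOXO1 and FOXO3 and keeps them out of the nucleus, and when insulin is low these factors return to it and switch on genes of fasting, among them Irs2, Insr and the enzymes of glucose production. PGC-1alpha (Ppargc1a), SIRT1, TXNIP and KLF15 act beside this axis: a transcriptional coactivator, a deacetylase that depends on NAD+, an arrestin-like protein that binds thioredoxin and restrains glucose uptake, and a zinc-finger factor known for amino acid breakdown during fasting.

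Promoter sequences are shown for 3 members that were highest in LSF among the feeding patterns and whose windows held a searched motif. RefSeq promoter windows on GRCm38.p6 matched 7 of the 8 genes, all but Insr. The 250 bases before the annotated start were searched on both strands for GTAAACA (a FOXO motif), CAAAACAA (an insulin response element), CACGTG (an E-box, the kind of site bound by clock and by glucose-responsive factors) and TGACGTCA (a cAMP response element). Capitals mark the matches and each sequence runs 5′ to 3′ on the strand of its gene.
Irs2, chr8:11008930-11009179, minus strand: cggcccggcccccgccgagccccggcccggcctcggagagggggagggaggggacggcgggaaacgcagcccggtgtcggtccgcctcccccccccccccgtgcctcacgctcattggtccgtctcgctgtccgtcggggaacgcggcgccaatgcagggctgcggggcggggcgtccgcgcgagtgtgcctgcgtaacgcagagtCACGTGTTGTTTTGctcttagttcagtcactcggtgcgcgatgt
Klf15, chr6:90462326-90462575, plus strand: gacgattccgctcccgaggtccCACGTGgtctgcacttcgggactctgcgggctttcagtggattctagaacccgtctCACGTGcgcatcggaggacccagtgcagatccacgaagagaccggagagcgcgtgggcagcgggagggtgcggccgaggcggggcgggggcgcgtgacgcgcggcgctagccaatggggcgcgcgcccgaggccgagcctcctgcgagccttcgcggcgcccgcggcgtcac
Txnip, chr3:96557707-96557956, plus strand: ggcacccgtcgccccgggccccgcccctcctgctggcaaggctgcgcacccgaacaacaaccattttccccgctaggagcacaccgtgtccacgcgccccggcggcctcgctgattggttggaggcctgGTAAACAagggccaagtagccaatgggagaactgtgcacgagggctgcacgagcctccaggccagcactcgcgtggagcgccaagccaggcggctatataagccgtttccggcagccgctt
In the Irs2 window an E-box 44 bases before the start ran directly into an insulin response element, read on the other strand, at 38 bases. The Klf15 window held 2 E-boxes, at 228 and 172 bases, and the Txnip window 1 FOXO motif at 121 bases. The Sirt1 window also held 2 E-boxes, at 115 and 43 bases. None of the 4 motifs was found in the windows of Foxo1, Foxo3 and Ppargc1a. Of 32851 windows of this length, 6.02% held the E-box, 3.17% the FOXO motif, 2.21% the insulin response element and 1.55% the cAMP response element. The RefSeq start equals that of the GENCODE gene used below for Klf15 and Txnip, is 1 base away from it for Foxo1 and Ppargc1a, and lies farther off for Irs2, Foxo3 and Sirt1, so that the windows of Foxo3 and Sirt1 lie partly or wholly within the GENCODE gene. These matches describe letters in 1 window and were not measured as binding sites.

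Per kilobase of exon, Txnip was the most abundant member in each group, from 143 CPM per kb in BSF to 221 in con. Klf15 was the least abundant except in LSF, with 0.432 CPM per kb in con and 6.79 in LSF, where Sirt1 was lower at 5.31. Irs2, Foxo1 and Foxo3 lay between 8.70 and 17.5 CPM per kb, and Insr, Ppargc1a and Sirt1 between 3.98 and 7.45.

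**Figure D1:**
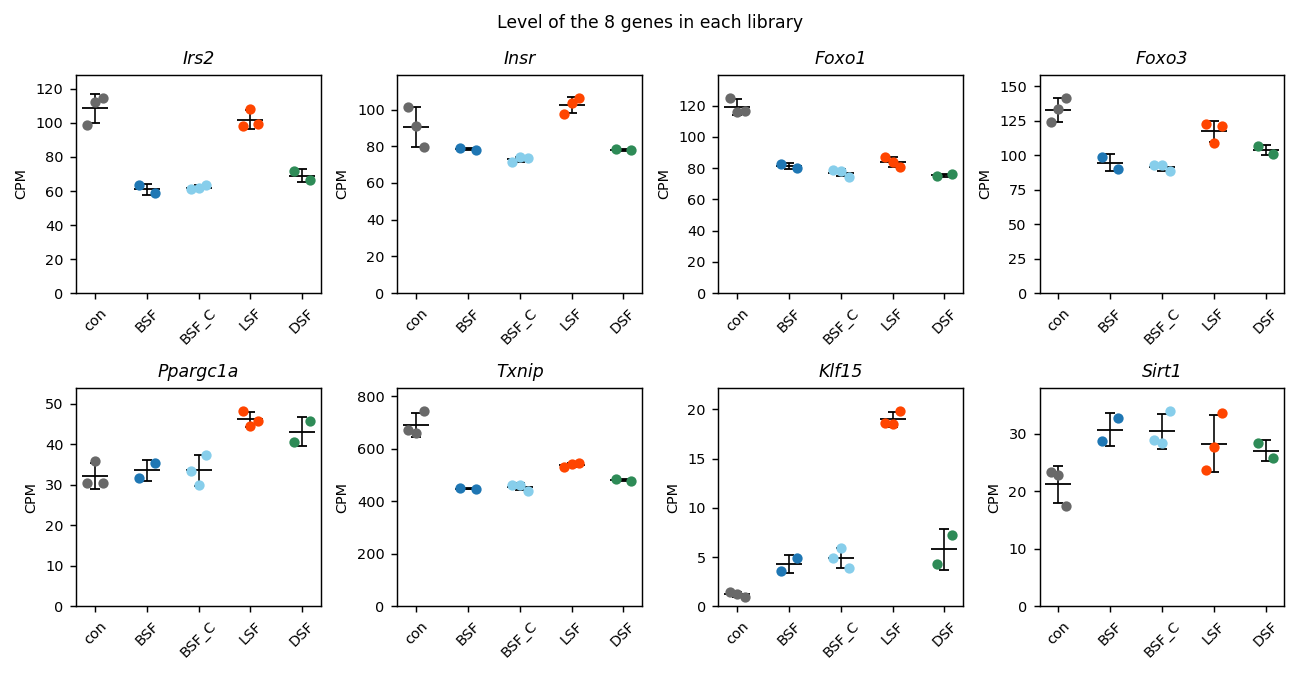
Each panel plots 1 gene, with CPM on a linear axis from 0 and 1 point per library, and bars show the mean and SD of each group (n = 3, 2, 3, 3 and 2). The 3 LSF libraries of Klf15 lie between 18.5 and 19.8 CPM and the other 10 between 0.921 and 7.26 CPM.

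Lunch skipping differed from breakfast skipping at 6 of the 8 genes, all higher in LSF, where 29.3% of all tested genes were called and 15.9% were called higher in LSF and 13.4% lower. Against BSF_C the count was again 6, all higher in LSF, with 32.7% of genes called, 17.1% higher in LSF and 15.6% lower. Against DSF 4 members were higher in LSF and none was lower, with 15.9% of genes called, 8.97% higher and 6.91% lower. The called members were Klf15, Irs2, Insr and Txnip in all 3 comparisons, and Foxo3 and Ppargc1a against BSF and BSF_C. The median log2 difference over the 8 genes was 0.35 against BSF, 0.41 against BSF_C and 0.17 against DSF, beside medians over all genes of -0.0078, -0.0097 and -0.00037. The 3 comparisons share the LSF libraries. Scaling by library totals alone moved the split of all calls (the share higher in the group named first went from 45.9% to 62.9% for BSF against LSF, from 47.6% to 63.3% for BSF_C against LSF and from 56.5% to 38.0% for LSF against DSF). Under that scaling 6 members were again called against BSF and 6 against BSF_C, and Txnip lost its call against DSF.

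**Figure D2:**
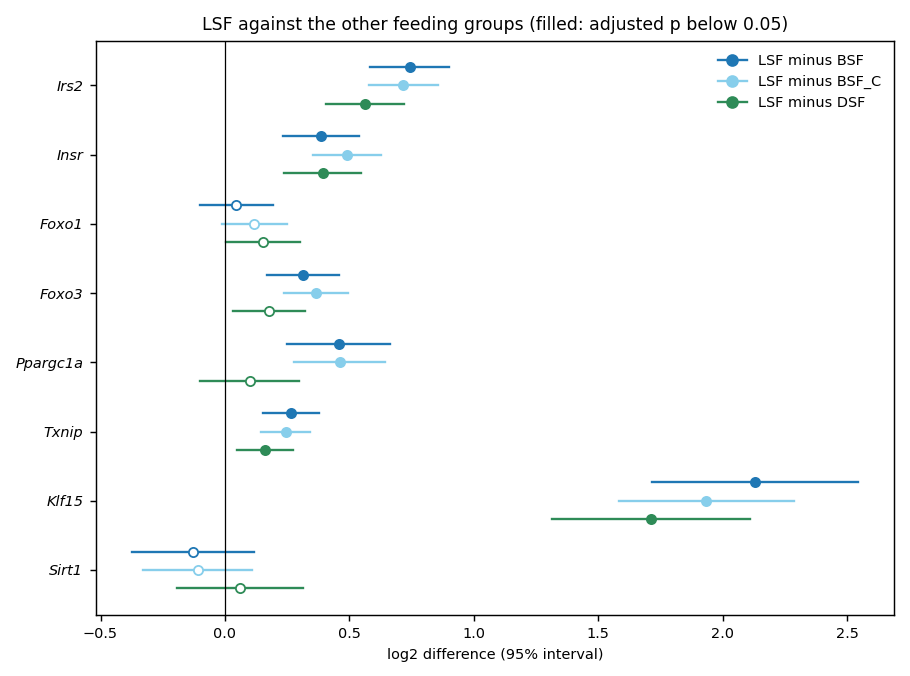
The log2 difference of LSF from BSF, BSF_C and DSF is plotted for each gene with its 95% interval, and filled points had an adjusted p under 0.05. Klf15 lies between 1.71 and 2.13, Irs2 between 0.56 and 0.74, and the intervals of Sirt1 span 0 in all 3 comparisons.

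Insr (ENSMUSG00000005534.10, chromosome 8, 3122061 to 3279617, minus strand, GENCODE annotation on GRCm38) encodes the receptor itself. Its 3 LSF libraries had 97.4, 104 and 106 CPM. The BSF libraries had 78.9 and 77.9 CPM, the BSF_C libraries 71.4, 74.0 and 73.5, and the DSF libraries 78.3 and 77.7. The 3 con libraries spread widely, at 101, 90.9 and 79.5 CPM. All LSF libraries were above all BSF, BSF_C and DSF libraries, and they overlapped those of con. LSF was higher than BSF by 0.39 (interval 0.23 to 0.54, adjusted p = 8.3e-05 by edgeR), than BSF_C by 0.49 (0.35 to 0.63, 7.8e-08) and than DSF by 0.39 (0.24 to 0.55, 0.00011). DSF and BSF were nearly equal, with a difference of -0.0064 and an interval from -0.18 to 0.17.

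Irs2 (ENSMUSG00000038894.7, chromosome 8, 10984681 to 11008458, minus strand) encodes the adaptor that carries the signal inward and is itself a FOXO target. The LSF libraries had 98.5, 108 and 99.1 CPM and the con libraries 98.7, 112 and 115. The BSF libraries had 63.4 and 58.7 CPM, the BSF_C libraries 60.9, 61.6 and 63.5 and the DSF libraries 71.8 and 66.4. LSF and con overlapped and lay above every other library, and DSF lay above BSF and BSF_C without passing the test. LSF was 1.67-fold higher than BSF (log2 0.74, interval 0.58 to 0.90, adjusted p = 5.9e-11 by edgeR). It was 1.64-fold higher than BSF_C (0.72, 0.58 to 0.86, 2.2e-12) and 1.48-fold higher than DSF (0.56, 0.40 to 0.72, 1.1e-07). The order of means was con, LSF, DSF, BSF_C and BSF, and among neighbours in it only LSF and DSF differed by the test.

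Foxo1 (ENSMUSG00000044167.6, chromosome 3, 52268336 to 52353221, plus strand) encodes the FOXO factor best known for driving glucose production in the liver. It had 86.9, 83.6 and 80.7 CPM in LSF, 82.5 and 80.0 in BSF, 78.9, 78.3 and 74.3 in BSF_C, and 74.8 and 76.0 in DSF. LSF overlapped BSF and lay above BSF_C and DSF by a few CPM. None of these differences passed the test: LSF minus BSF was 0.045 (interval -0.10 to 0.19), LSF minus BSF_C 0.12 (-0.013 to 0.25) and LSF minus DSF 0.15 (0.0030 to 0.30), with adjusted p values by edgeR of 0.69, 0.16 and 0.18. Under library totals alone LSF minus BSF turned to -0.031. The con libraries stood above them all at 125, 116 and 116 CPM.

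Foxo3 (ENSMUSG00000048756.11, chromosome 10, 42181841 to 42276755, minus strand) encodes a second FOXO factor, linked to stress resistance and cell survival. The LSF libraries had 122, 109 and 121 CPM, the DSF libraries 106 and 101, the BSF libraries 98.9 and 90.0, and the BSF_C libraries 92.5, 92.5 and 88.1. The con libraries had 124, 133 and 141 CPM. The groups followed one another as con, LSF, DSF, BSF and BSF_C, with only BSF and BSF_C overlapping. LSF was higher than BSF by 0.31 (interval 0.17 to 0.46, adjusted p = 0.00062 by edgeR) and than BSF_C by 0.37 (0.24 to 0.49, 9.2e-06). LSF minus DSF was 0.18 (0.034 to 0.32, 0.087), which passed with an adjusted p of 0.024 when con was left out of the fit and of 0.018 with LSF and DSF alone in it, and with one of 0.045 without LSF replicate 2. Without BSF replicate 2 the difference from BSF was 0.24 with an adjusted p of 0.064 by edgeR. Whether the changes of Foxo3 and Foxo1 differ from each other was not tested.

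Ppargc1a (ENSMUSG00000029167.13, chromosome 5, 51454250 to 51567726, minus strand) encodes the coactivator PGC-1alpha of mitochondrial and fasting genes. It had 48.2, 44.6 and 45.7 CPM in LSF and 40.6 and 45.7 CPM in DSF. BSF had 31.8 and 35.3 CPM, BSF_C 33.5, 29.8 and 37.3, and con 30.4, 36.0 and 30.4. The libraries thus formed a higher set of LSF and DSF and a lower set of BSF, BSF_C and con, with no overlap between the sets. LSF was higher than BSF by 0.46 (interval 0.25 to 0.66, adjusted p = 0.00048 by edgeR) and than BSF_C by 0.46 (0.28 to 0.64, 6.6e-05), and LSF minus DSF was 0.099 (-0.10 to 0.30, 0.59). DSF was higher than BSF by 0.36 (0.13 to 0.58, 0.029) and than BSF_C by 0.36 (0.16 to 0.57, 0.012). The call of DSF against BSF was lost without either BSF library (0.29 and 0.44) or without DSF library S3 (0.27) and by the DESeq2 Wald test (0.37), and the call against BSF_C was lost without DSF library S3 or BSF_C replicate 2 (0.28 in both). Heart muscle transcripts were also more abundant in LSF and DSF than in BSF and BSF_C, and their part in the Ppargc1a difference was not tested.

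Sirt1 (ENSMUSG00000020063.16, chromosome 10, 63319005 to 63381704, minus strand) encodes the deacetylase that acts on PGC-1alpha and FOXO proteins. It had 23.7, 27.6 and 33.6 CPM in LSF, 28.7 and 32.8 in BSF, 29.0, 28.4 and 33.9 in BSF_C, and 28.4 and 25.7 in DSF. The LSF libraries spanned almost the whole range of the others. LSF minus BSF was -0.13 (interval -0.37 to 0.12), LSF minus BSF_C -0.11 (-0.33 to 0.11) and LSF minus DSF 0.060 (-0.19 to 0.31), with adjusted p values by edgeR between 0.47 and 0.82. The 3 con libraries had 23.3, 22.9 and 17.5 CPM, and their highest was below the lowest LSF library by less than 1 CPM.

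Txnip (ENSMUSG00000038393.14, chromosome 3, 96557957 to 96561883, plus strand) responds to glucose and to nutrient state through E-box factors and encodes the thioredoxin-interacting protein. It had 531, 540.0 and 544 CPM in LSF, 483 and 478 in DSF, 449 and 446 in BSF, and 462, 463 and 439 in BSF_C. The con libraries were highest, with 669.6, 659 and 743 CPM. LSF stood clear of DSF, and DSF clear of both breakfast-skipping groups, which overlapped each other. LSF was higher than BSF by 0.27 (interval 0.15 to 0.38, adjusted p = 0.00021 by edgeR), than BSF_C by 0.24 (0.14 to 0.34, 0.00011) and than DSF by 0.16 (0.050 to 0.27, 0.038). The last call was lost when any single LSF or DSF library was left out (0.15 to 0.17, with adjusted p from 0.068 to 0.23) and under library totals alone (0.10). DSF minus BSF was 0.10 (-0.020 to 0.23) and did not pass.

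Klf15 (ENSMUSG00000030087.11, chromosome 6, 90462576 to 90475238, plus strand) showed the largest change of the 8 genes in each comparison of LSF. Its protein is induced by glucocorticoids and by fasting in liver and muscle. The LSF libraries had 18.6, 18.5 and 19.8 CPM, from 144 to 154 counts each. The BSF libraries had 3.63 and 4.90 CPM, the BSF_C libraries 4.91, 5.97 and 3.92, the DSF libraries 4.29 and 7.26, and the con libraries 1.45, 1.25 and 0.921 from 4 to 7 counts each. Every LSF library was far above every other library, con was below all others, and BSF, BSF_C and DSF overlapped. LSF was 4.38-fold higher than BSF (log2 2.13, interval 1.72 to 2.54, adjusted p = 3.5e-12 by edgeR), 3.82-fold higher than BSF_C (1.93, 1.58 to 2.28, 2.3e-13) and 3.28-fold higher than DSF (1.71, 1.3 to 2.1, 8.4e-10). Beside this difference from DSF, the mean heart muscle sum was 485 CPM in LSF and 484 in DSF and the leukocyte sum 315 and 316. The fibroblast sum was 217 and 177 CPM, the kidney tubule sum 107 and 90.3 and the epithelial sum 15440 and 13951, and the part of these transcripts was not tested. The kidney tubule genes did not move together. Cubn, Slc34a1, Slc12a3 and Lrp2 had higher means in LSF, Cubn by the most (37.6 against 12.6 CPM). The others had lower means, Gpx3 by the most (52.4 against 58.5 CPM). The epithelial genes were split as well. Vil1, Krt20, Alpi, Fabp1, Fabp2, Lct, Sis and Anpep had higher means in LSF, Alpi by the most (2994 against 1822 CPM). Epcam, Cdh1, Cdx2, Krt8, Krt18 and Krt19 had lower means in LSF, Krt19 by the most (1728 against 2121 CPM). DSF minus BSF was 0.42 (-0.12 to 0.95, adjusted p 0.35 by edgeR) and turned to -0.0054 without DSF library S3.

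**Figure D3:**
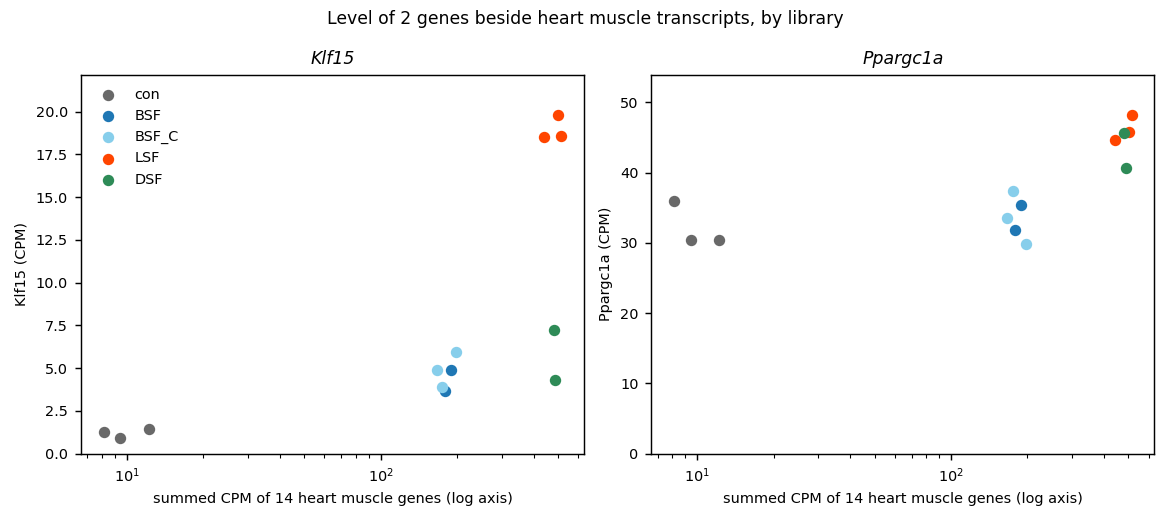
CPM of Klf15 and Ppargc1a in each library is plotted on a linear axis against the summed CPM of 14 heart muscle genes on a log axis. The LSF libraries lie at sums of 441 to 514 CPM and the DSF libraries at 481 to 487, and the groups are apart in Klf15 and overlap in Ppargc1a.

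The annotated exons of 4 members overlap a gene on the opposite strand: 162 bases of Irs2 with 9530052E02Rik, 674 of Foxo1 with Gm20402, 606 of Txnip with Gm15441 and 65 of Sirt1 with Gm16145. The sources used here do not give the strand setting of the counting, and reads of these pairs cannot be told apart.

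By the test, breakfast and dinner skipping differed at Ppargc1a alone among the 8 genes, a count near the share of all genes called. That call was lost under several of the alternatives given above for Ppargc1a. DSF against BSF gave 1 call, higher in DSF, with 12% of all genes called, 6.26% higher in DSF and 5.77% lower. DSF against BSF_C also gave 1, higher in DSF, with 11.9% of genes called, 5.99% higher in DSF and 5.87% lower. The median log2 difference of the 8 genes was 0.12 and 0.13. When con was left out of the fit, Foxo3 was called higher in DSF than in BSF_C as well (0.19, adjusted p 0.025 by edgeR). Insr, Irs2, Foxo1, Txnip, Klf15 and Sirt1 were called in neither comparison, and the interval of Irs2 in DSF minus BSF ran from 0.0023 to 0.36.

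None of the 8 genes differed between the combined group BSF_C and BSF by the test. edgeR's quasi-likelihood test called 0 of them, and 0 had an unadjusted p under 0.05. It called 0.133% of all genes, 0.105% higher in BSF_C and 0.0280% lower, and neither the DESeq2 Wald test nor limma-voom called a member. The median log2 difference over the members was -0.011. The libraries of the pair did not overlap at Insr and Foxo1, where the BSF_C values were the lower ones. The log2 differences were -0.10 and -0.074, with an adjusted p of 1 for each by edgeR. With so few libraries such a separation can arise by chance, and its share among all genes is not given here. It is therefore no result about Insr or Foxo1.

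Among the genes that surround these regulators, the FOXO list had 16 calls in LSF against BSF. The list holds Foxo4, Foxo6 and 24 genes known as FOXO targets, of which 25 were tested (Igfbp1 had 1 count in all). In LSF 15 were higher and 1 lower than in BSF, 15 higher and 0 lower than in BSF_C, and 8 higher and 2 lower than in DSF. The median log2 difference was 0.34, 0.34 and 0.16, beside the medians near 0 over all genes given above. The share of the list called was 64%, 60% and 40%, beside 29.3%, 32.7% and 15.9% of all genes. The list was drawn up with results of these data known, Pck1 and Pdk4 among them, so its direction is not independent evidence, and Rictor stands in it and in the insulin list. The counts higher in LSF were 14, 14 and 8 under library totals alone and 16, 16 and 9 with con left out of the fit.

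Pck1, whose product PEPCK commits carbon to glucose production, had 489 ± 5.70 CPM in LSF (SD, n = 3). It had 57.3 ± 4.0 CPM in BSF (n = 2), 60.2 ± 3.41 in BSF_C (n = 3), 70.3 ± 1.15 in DSF (n = 2) and 15.3 ± 1.23 in con (n = 3). LSF was 8.51-fold above BSF, 8.12-fold above BSF_C and 6.95-fold above DSF. Pdk4, the kinase that turns off pyruvate dehydrogenase, had 108 ± 2.57 CPM in LSF against 27.9 ± 4.30 in BSF, 29.1 ± 0.530 in BSF_C and 33.1 ± 5.97 in DSF, with log2 differences of 1.94, 1.89 and 1.70. G6pc, which releases free glucose, was higher in LSF by 0.24, 0.20 and 0.56. Cat, which breaks down hydrogen peroxide, was higher by 0.51, 0.44 and 0.76. Each of these 12 differences passed edgeR's test.

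Other listed targets followed DSF as well as LSF. Sesn1, a stress-induced inhibitor of TOR signalling, was highest in DSF, at 90.6 ± 3.73 CPM against 62.8 ± 1.40 in LSF and 49.8 ± 4.21 in BSF. It was above BSF by 0.87 in DSF and by 0.34 in LSF, and LSF minus DSF was -0.53. Fbxo32, a ubiquitin ligase typical of striated muscle, had 7.05 ± 0.791 CPM in LSF and 7.40 ± 0.204 in DSF against 2.83 ± 0.377 in BSF, 2.94 ± 0.449 in BSF_C and 2.52 ± 0.459 in con. LSF and DSF also had the higher heart muscle sums, and the part of those transcripts in it was not tested. Gadd45a, a DNA damage response gene, was lower in LSF than in DSF by the test, with a log2 difference of -0.29, and Sesn3 was lower in LSF than in BSF (-0.29). Of the FOXO factors themselves, Foxo4 was higher in DSF than in BSF by 0.28, and neither Foxo4 nor Foxo6 passed in the 3 comparisons of LSF. In all, 7 of the list were higher and 3 lower in DSF than in BSF, and 6 higher and 3 lower than in BSF_C, with medians of 0.16 and 0.13 and 40% and 36% called, beside 12% and 11.9% of all genes.

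**Figure D4:**
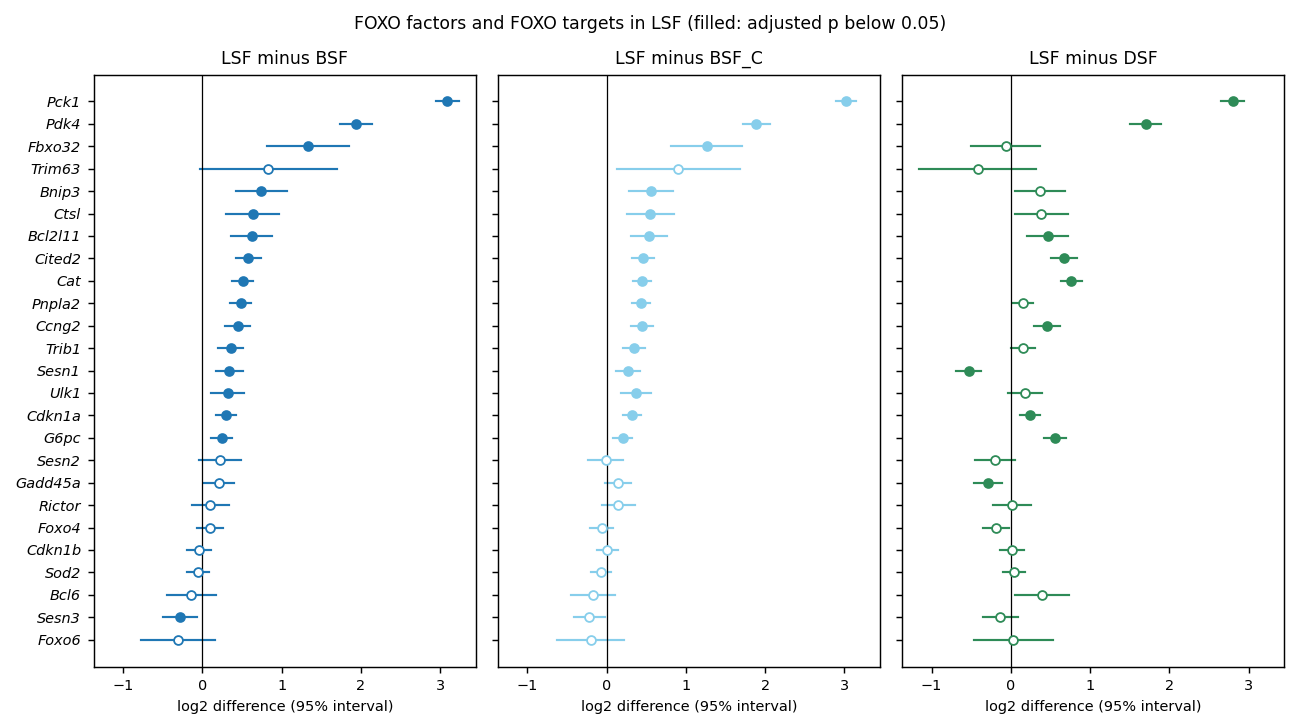
The 25 tested genes of the FOXO list are plotted by their log2 difference of LSF from BSF, BSF_C and DSF with 95% intervals, ordered by the first panel, and filled points had an adjusted p under 0.05. Pck1 and Pdk4 lie farthest to the right in all 3 panels, and Sesn1 changes side in the third.

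The genes between the insulin receptor and TOR had medians near 0. Of 37 tested, 6 were higher and 6 lower in LSF than in BSF, 6 higher and 7 lower than in BSF_C, and 4 higher and 1 lower than in DSF, with medians of -0.022, -0.026 and 0.0051. The share called was 32.4%, 35.1% and 13.5%, near the 29.3%, 32.7% and 15.9% of all genes. DSF had 1 higher and 4 lower than BSF, and 0 higher and 1 lower than BSF_C, which is 13.5% and 2.7% called beside 12% and 11.9% of all genes. Irs1, the other main adaptor, was near the limit of counting, with 5.02 ± 0.626 CPM in LSF and 2.10 ± 0.452 in BSF, and differed between them by 1.26. Trib3, a pseudokinase that binds AKT, had 11.9 ± 1.72 CPM in LSF against 6.59 ± 0.963, 5.85 ± 2.04 and 6.16 ± 0.432 in BSF, BSF_C and DSF, and the 3 differences of 0.87, 1.03 and 0.95 passed. Inpp5k, an inositol phosphatase that dampens AKT signalling, had 36.0 ± 2.91 CPM in LSF, 26.8 ± 0.545 in DSF and 20.3 ± 0.457 in BSF. Tbc1d4, an AKT substrate that controls glucose transporter traffic, was higher in BSF than in DSF, at 17.1 ± 0.569 against 12.3 ± 0.400 CPM. Grb10, an adaptor that inhibits the receptor, was higher in BSF_C than in DSF, at 7.75 ± 1.33 against 4.65 ± 0.139 CPM.

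Around Txnip, 13 genes of glucose sensing and thioredoxin were tested. In LSF 2 were higher and 2 lower than in BSF, 3 higher and 2 lower than in BSF_C, and 2 higher and 1 lower than in DSF, with medians of 0.061, 0.032 and -0.013. The share called was 30.8%, 38.5% and 23.1%, beside the same shares of all genes. Slc2a2, the glucose transporter GLUT2, had 441 ± 8.79 CPM in LSF and 287 ± 14.9, 285 ± 2.36 and 281 ± 9.37 in BSF, BSF_C and DSF, and its differences of 0.62, 0.63 and 0.65 passed. Mlx, the partner of the glucose-responsive factors, was higher in LSF than in BSF by 0.26. Txn1, the cytosolic thioredoxin that TXNIP binds, had 40.6 ± 3.46 CPM in DSF, below LSF (49.3 ± 2.08) and BSF (51.6 ± 3.90) by the test, and the mitochondrial Txn2 was lower in LSF than in BSF_C, at 146 ± 3.79 against 176 ± 6.50 CPM. DSF had 1 higher and 2 lower than BSF, and 1 higher and 0 lower than BSF_C, or 23.1% and 7.69% called beside 12% and 11.9%. Slc2a1, the transporter GLUT1, was higher in DSF than in BSF and BSF_C by 0.49 and 0.40.

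Of 32 genes tested around PGC-1alpha, the sirtuins and AMPK, 6 were higher and 4 lower in LSF than in BSF, 8 higher and 4 lower than in BSF_C, and 4 higher and 4 lower than in DSF. The medians were 0.041, 0.073 and 0.014, and the share called was 31.3%, 37.5% and 25%, where 29.3%, 32.7% and 15.9% of all genes were called. DSF had 3 higher and 1 lower than BSF and 3 higher and 0 lower than BSF_C, or 12.5% and 9.38% called beside 12% and 11.9%. Sik1, a kinase induced by cAMP, had 30.03 ± 3.98 CPM in LSF, 22.3 ± 0.705 in DSF, 15.9 ± 2.63 in BSF and 15.2 ± 1.33 in BSF_C. Perm1, a muscle regulator downstream of PGC-1alpha, had 15.9 ± 1.22 CPM in LSF and 16.9 ± 0.168 in DSF against 10.3 ± 2.51 in BSF and 9.78 ± 0.722 in BSF_C, the same grouping of the feeding patterns as Ppargc1a and the heart muscle sum, whose part in it was not tested, while con had 17.2 ± 2.01 CPM. Lpin1, a phosphatidate phosphatase that also acts with PGC-1alpha, was highest of the feeding patterns in DSF at 18.7 ± 0.555 CPM. Kat2a, an acetyltransferase that acts on PGC-1alpha, was lower in LSF than in DSF, at 33.7 ± 0.874 against 45.4 ± 3.81 CPM.

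Among the other Kruppel-like factors, 12 of 16 were tested. In LSF 5 were higher than in BSF and 7 higher than in BSF_C with 0 lower, and 3 were higher and 1 lower than in DSF, with medians of 0.18, 0.33 and 0.10. The share called was 41.7%, 58.3% and 33.3%, beside those 3 shares of all genes. DSF had 3 higher than BSF and 4 higher than BSF_C, with 0 lower, or 25% and 33.3% called beside 12% and 11.9%. Klf11 had 21.8 ± 0.741 CPM in LSF, 14.3 ± 0.784 in DSF, 10.3 ± 1.99 in BSF and 10.3 ± 0.722 in BSF_C. Klf4, a factor of differentiating gut epithelium, was higher in LSF than in DSF, at 176 ± 6.08 against 119 ± 1.65 CPM. Klf2 had 5.85 ± 0.615 CPM in LSF and 6.61 ± 0.397 in DSF against 2.68 ± 0.0124 in BSF and 2.93 ± 0.624 in BSF_C, a grouping shared with the heart muscle and leukocyte sums, whose part in it was not tested. Klf10 was higher in DSF than in BSF at 83.1 ± 4.44 against 59.2 ± 0.660 CPM.

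Genes with the most similar pattern to each member are given as a description over the 10 libraries other than con, with Pearson's r of log2 CPM. These libraries share their groups and depth, so a gene that rises with LSF resembles any member that does. Irs2 was closest to Ahnak, Glud1 and Mfsd4b2-ps (r = 0.99 each), and Insr to Ndfip1, Ugt2b34 and Sult1d1 (0.99 each). Foxo1 was closest to Slc25a44 and Xpr1 (0.96 each) and Fam169b (0.93), and Foxo3 to B3gnt8 (0.98), Snx20 and Tcf7l1 (0.97 each). For Ppargc1a the genes were Xaf1, Prob1 (0.98 each) and Arhgap27 (0.97), and for Txnip Wbp2 (1.00), Dazap2 and Rhog (0.99 each). Klf15 was closest to Zc3h6 (0.99), Chp2 and Plec (0.98 each). Sirt1 had the loosest matches, Stxbp3 (0.91), Zfp644 and Dnph1 (0.89 each). Glud1, which splits glutamate, had 564 ± 4.22 CPM in LSF against 320.1 ± 8.56 in BSF, 319 ± 8.61 in BSF_C and 357 ± 3.67 in DSF.

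Against con most genes of the whole table were called, and a member count near that share is no result about the members. BSF gave 7 calls of 8 (2 higher, 5 lower) where 70.2% of all genes were called, 38.3% higher and 31.9% lower. BSF_C gave 7 (2 higher, 5 lower) beside 73.0%, 39.8% and 33.2%. LSF gave 7 (4 higher, 3 lower) beside 72.0%, 38.9% and 33.0%, and DSF gave 8 (3 higher, 5 lower) beside 67.7%, 36.6% and 31.1%. The 4 comparisons share the 3 con libraries. The median of all genes lay 0.11, 0.12, 0.10 and 0.10 above con in BSF, BSF_C, LSF and DSF, and 0.29, 0.28, 0.20 and 0.26 above it under library totals alone, so the changes below are given relative to the median of all genes under TMM scaling.

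**Figure D5:**
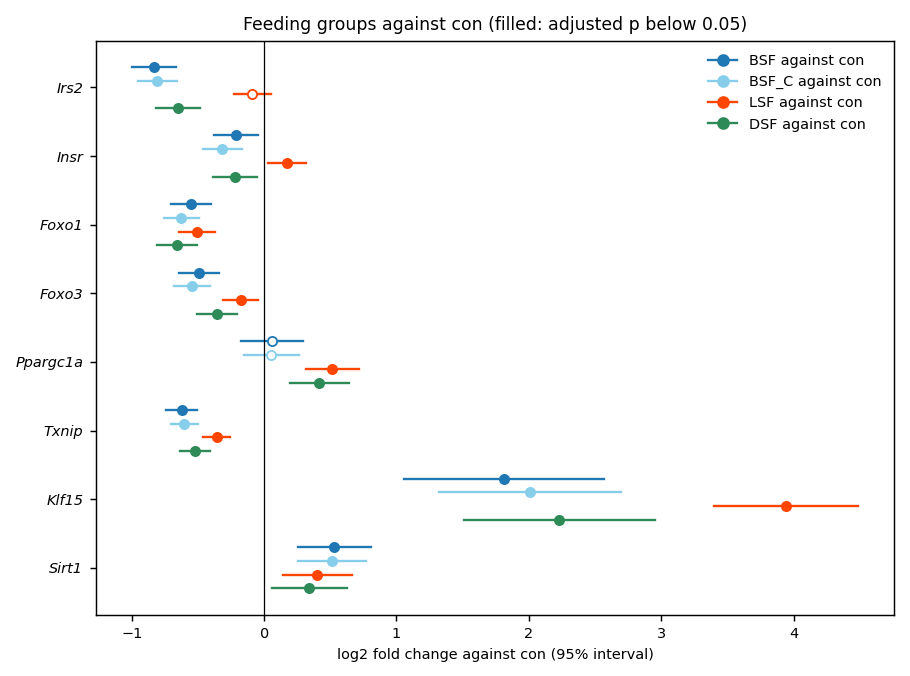
The log2 fold change of each feeding group against con, before the median of all genes is subtracted, is plotted with its 95% interval, and filled points had an adjusted p under 0.05. Klf15 lies to the right of 1 in all 4 groups, and Foxo1, Foxo3 and Txnip lie to the left of 0.

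Relative to that median, Klf15 was 1.70, 1.89, 3.84 and 2.13 above con in BSF, BSF_C, LSF and DSF. Sirt1 was 0.42, 0.39, 0.30 and 0.24 above it. Foxo1 was lower in all 4, at -0.66, -0.74, -0.61 and -0.76, as was Txnip at -0.74, -0.72, -0.46 and -0.62 and Foxo3 at -0.60, -0.66, -0.28 and -0.46. Irs2 was lower in BSF, BSF_C and DSF, at -0.94, -0.93 and -0.75, while in LSF it was -0.19 and did not pass the test, with a fitted change that turned to 0.0095 under library totals alone. Ppargc1a was 0.42 above con in LSF and 0.32 above it in DSF, and -0.052 and -0.064 in BSF and BSF_C without passing.

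Insr was lower in BSF, BSF_C and DSF (-0.32, -0.43 and -0.32) and 0.073 above the median in LSF, where the fitted change of 0.17 passed. These Insr calls were the least stable. Under library totals alone the calls of BSF, BSF_C and DSF were lost, at fitted changes of -0.038, -0.15 and -0.062. Those of BSF and DSF were also lost with the 2 groups alone in the fit (-0.19 and -0.18), and that of DSF in thinned libraries (-0.18). Without con replicate 1 the changes of BSF and DSF were -0.13 each and did not pass, nor did that of BSF without BSF replicate 2 (-0.21) or that of DSF without library S2 (-0.23) or S3 (-0.22). The change of LSF did not pass without con replicate 3 (0.089), LSF replicate 2 (0.17) or LSF replicate 3 (0.15), nor by the DESeq2 Wald test (0.16) or with the replicate block (0.17). Without con replicate 3 only 4 members were called in LSF, since Foxo3 (-0.13) and Sirt1 (0.29) lost their calls as well. Foxo3 in LSF also lost its call without LSF replicate 2 (-0.13) and under library totals alone (-0.079), Sirt1 in LSF without LSF replicate 3 (0.26), and Sirt1 in DSF without con replicate 3 (0.23) or DSF library S2 (0.26) and by the Wald test (0.33). The skin keratinocyte sum set con apart from every other group, and so did the heart muscle, leukocyte and fibroblast sums in the opposite direction. The part of these transcripts in the changes from con was not tested.

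The lists against con are given by their counts, beside 67.7% to 73.0% of all genes called. Of the FOXO list 11 were higher and 8 lower for BSF, 11 and 8 for BSF_C, 14 and 5 for LSF, and 15 and 4 for DSF. For the insulin to TOR list the 4 counts were 9, 10, 13 and 11 higher with 17, 18, 16 and 16 lower, and for the list around PGC-1alpha 8, 9, 11 and 8 higher with 15, 15, 14 and 12 lower. The share called was 76% of the FOXO list in each comparison, 70.3% to 78.4% of the insulin list and 62.5% to 78.1% of the PGC-1alpha list. The Txnip list had 6 higher in each group, with 7, 6, 6 and 7 lower, and the Kruppel-like factors had 2, 2, 3 and 4 higher with 7, 6, 5 and 6 lower, which is 92.3% to 100% and 66.7% to 83.3% called. Genes with large rises from con were G6pc, from 18.2 ± 2.53 CPM to between 112 and 165, Slc2a2, from 49.7 ± 2.64 to between 281 and 441, and Grb10, from 1.35 ± 0.454 CPM to between 4.65 and 7.75. Txnrd2, the mitochondrial thioredoxin reductase, had 2.01 ± 0.677 CPM in con and 5.44 ± 0.888 in DSF. Genes with large falls were Trib1, from 282 ± 33.5 CPM to between 74.0 and 94.7, Klf10, from 218 ± 9.31 to between 59.2 and 83.1, Klf11, from 62.2 ± 3.98 to between 10.3 and 21.8, and Slc2a1, from 58.7 ± 4.75 to between 17.4 and 24.4. Foxk1, a forkhead factor of glycolysis, fell from 269 ± 9.52 CPM to between 112 and 122, and Ptpn1, the phosphatase that switches off the insulin receptor, from 105 ± 5.95 to between 48.5 and 54.6. Pprc1, a relative of PGC-1alpha, fell from 165 ± 13 CPM to between 54.97 and 67.4, Prkab1, an AMPK subunit, from 113 ± 14.8 to between 53.7 and 62.5, Lpin1 from 27.2 ± 4.28 to between 13.2 and 18.7, and Crtc1, a coactivator of CREB, from 58.8 ± 6.69 to between 31.4 and 38.3.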

How the data were processed

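The deposited table holds whole-number read counts for 21868 gene symbols in 13 libraries, with no normalization. The submitters' processing notes name FastQC 0.11.8, cutadapt 2.9, STAR 2.7.2e, DESeq2 1.32.0 and the builds GRCm38 and mm10. Genes were kept by filterByExpr (14300, with 99.9% of counts), scaled by TMM and tested in edgeR 4.0.16 under R 4.3.3, with the 13 libraries fitted together, a group term and no covariate (8 residual degrees of freedom) and Benjamini-Hochberg adjustment at 0.05. The interval uses the log2 difference over the square root of F as its standard error. The procedure was tested on simulated data. DSF columns are marked S2 and S3 while the labels number 1 and 2, so DSF libraries carry no replicate number.

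Groups followed the labels. All 8 members were named in every comparison. From each list, per comparison, the rule took the 2 called genes with the largest change among those without overlap and with 5 CPM or more on the higher side, and for each member the 3 genes of highest correlation. Cat, Gadd45a and Sesn3 were named after their values were seen. Foxo4 and Foxo6 were named as FOXO factors, also outside that rule. Members and lists were chosen with earlier results of these data known. Alternatives were other scalings, DESeq2 1.42.0, limma-voom (limma 3.58.1), no filter, thinned libraries, fits of fewer groups, a replicate block, and leaving out each library. Gene models came from GENCODE M21.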

Additional observations from a re-analysis of the deposited data

How the results depend on the processing

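Of 1120 log2 changes of the 8 genes under the alternatives, 1052 kept their direction and side of the threshold, 37 lost a call, 5 gained one and 26 changed sign. None of the 26 was called in the first place. The calls of Klf15 and Irs2 in LSF against BSF, BSF_C and DSF kept both in every alternative run. The count of the FOXO list higher in LSF was 12 to 16 against BSF, 12 to 16 against BSF_C and 6 to 10 against DSF, which was counted after seeing the data, like the fit of the 11 numbered libraries without a block.

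All genes called were 1720 for BSF against DSF (1109 by the DESeq2 Wald test, 798 to 920 leaving out 1 library), 4190 for BSF against LSF (2557 to 3493), 1696 for BSF_C against DSF (848 to 1324) and 2271 for LSF against DSF (1288 to 1866). Other fits gave more calls. In the same order the counts were 2528, 5076, 2356 and 2947 with con left out. They were 2537, 5113, 2281 and 3082 with the 2 groups alone. For BSF_C against BSF the 19 calls became 4 by limma-voom, 2 by the Wald test, 30 without the filter, 32 with the 2 groups alone, 29 with con left out, and 12 to 23 leaving out 1 library. Members called for BSF against DSF became 0 by the Wald test and 0 to 1 leaving out 1 library. For BSF_C against DSF they became 2 with the 2 groups alone or with con left out and 0 to 1 leaving out 1 library, and for LSF against con 4 to 7. The cause of these changes in the counts was not tested.

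Sign changes under library totals alone were Foxo1 in BSF against LSF (0.031) and Irs2 in LSF against con (0.0095). Insr in BSF against DSF became -0.0021 by the Wald test, -0.0022 with DESeq2 size factors and -0.032 in thinned libraries. In thinned libraries BSF_C against BSF became -0.0014 for Klf15, 0.045 for Ppargc1a and 0.038 for Sirt1, LSF against DSF became -0.026 for Sirt1, and Ppargc1a in BSF_C against BSF became 0.00070 by the Wald test. Leaving out 1 library, BSF_C against BSF ranged from -0.12 to 0.015 for Foxo3, -0.034 to 0.078 for Irs2, -0.087 to 0.077 for Ppargc1a and -0.11 to 0.084 for Sirt1. BSF against DSF ranged from -0.0031 to 0.016 for Insr and -0.75 to 0.0054 for Klf15, and BSF_C against DSF from -0.55 to 0.20 for Klf15. Ppargc1a ranged from -0.031 to 0.14 in BSF and from -0.038 to 0.14 in BSF_C against con, and Sirt1 from -0.0083 to 0.25 in BSF_C against LSF and from -0.079 to 0.18 in LSF against DSF. The cause was not tested.

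Deviations of same-numbered libraries of different groups correlated at -0.067 to 0.030, and those of libraries with different numbers at -0.043 to 0.052. Within a group of so few libraries the deviations depend on each other. These correlations therefore cannot decide whether the numbers pair the samples, and the labels state no pairing. With the replicate block over the 11 numbered libraries, 47 of 48 values kept their call, and Insr in LSF against con became 0.17 (adjusted p 0.051 by edgeR). Depth limits Klf15 in con, with 17 counts in all.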
